A study of Mus musculus with 5 samples.

Results

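The genes described here are molecular chaperones with their heat shock relatives and co-chaperones, and immediate early and other fast-responding genes, in forelimb muscle tissue of mouse embryos. They were chosen by a rule on symbols, set with earlier results of these data known. The rule takes every gene whose name carries a chaperone prefix (Hsp, Dnaj, Bag or Cct) or the prefix of a fast-responding family (Fos, Jun, Egr, Ier, Atf, Dusp, Klf, Nr4a, Gadd45, Btg, Ddit, Cebp, and also Per1 to Per3, Bhlhe40 and Myc), leaving out the matrix gene Hspg2. The rule found 50 genes among the 4743 listed, 16 chaperones and 34 fast-responding genes. RNA was sequenced from 3 Noggin-deficient and 2 wild type control samples, all C57BL/6 and E15.5. The secreted antagonist Noggin captures BMP ligands before they reach their receptors, and the series title asks what an upset balance of BMP signals and mechanics around muscle does to myogenic cells. Neither the Nog allele nor whether a sample is an embryo, a pool or a litter is given in the sources used here, so p-values rest only on how far these samples spread, and that spread may be technical.

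Chaperones help proteins fold. Hsp70 proteins hold unfolded stretches with the help of J-domain proteins (the Dnaj genes) and are released by nucleotide exchange factors such as the BAG proteins. Chaperonins such as Hspd1 with its lid Hspe1 enclose proteins in mitochondria, and small heat shock proteins (Hspb) bind unfolding proteins without using ATP, several of them at the sarcomere of muscle. Immediate early genes such as Fos and Egr3 are transcribed within minutes of a growth factor, stretch or stress signal, before any new protein is needed. They mostly encode transcription factors, and dual-specificity phosphatases (Dusp) that are induced later switch the MAP kinases off again.

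The deposited values are an expression signal in a unit that is not named. Levels of different genes are therefore not compared, except to choose which values are printed. Ratios of genes within a library and sums over markers are read only as differences between libraries. Changes are differences of log2(value + 0.25), Noggin-deficient minus wild type, by limma's moderated test with Benjamini-Hochberg adjustment over 3913 genes that reached a value of 0.5 in at least 2 libraries. A gene with an adjusted p under 0.05 is called. Nog itself stood at 0.49, 0.42 and 0.42 with Noggin deficiency and at 2 and 1.99 in wild type, a log2 change of -1.70 (limma adjusted p = 2.6e-06). The tables list mostly genes that differ between the groups: 98.0% of the tested genes were called, 37.9% upward and 60.1% downward with Noggin deficiency, and the groups of libraries did not overlap for 98.2% of the listed genes. A call on a single gene therefore says little here, and direction, size and the spread between libraries carry the description. Of all calls 1484 were higher and 2352 lower, against 1507 and 1257 under median-of-ratios scaling of the libraries, which moved the median of all genes by 0.25 on the log2 scale, and 1240 and 1329 once a trend on transcript length was subtracted. Median-of-ratios scaling takes most genes as unchanged. With mostly differing genes listed it may also remove true differences, so values after it stand beside the deposited ones, not in their place. Listed values summed to between 92210 and 93695 in the Noggin-deficient and between 100792 and 102783 in the wild type libraries. The number of reads behind a value is unknown.

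Promoter sequences are shown for the chaperone pairs described below, because the members of one pair share the stretch between their starts and those of the other are near copies. Promoter windows of RefSeq (build GRCm38.p6, 250 bases before to 50 after each start) matched 40 of the 50 genes, in 51 windows. Hspd1 and Hspe1 stand head to head on chromosome 1, with Hspe1 on the plus strand and a start of Hspd1 on the minus strand 216 bases away. The bases between those starts are given on the plus strand (chr1:55087933-55088147), and the capitals mark 18 bases that hold overlapping heat shock elements, the binding site of heat shock factors, searched as the triplets GAA, TTC and GAA or TTC, GAA and TTC with 2 bases between triplets, on both strands.
Hspd1-Hspe1: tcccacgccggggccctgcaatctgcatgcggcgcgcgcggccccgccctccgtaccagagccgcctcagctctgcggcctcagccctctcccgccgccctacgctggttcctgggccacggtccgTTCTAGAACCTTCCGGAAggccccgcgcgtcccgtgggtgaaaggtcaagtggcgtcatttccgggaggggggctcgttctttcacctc

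The capitals begin 89 bases before the Hspe1 start, and the windows of this Hspd1 start and of Hspe1 both contain them because they overlap. The window of another Hspd1 start, 95 bases from the Hspe1 start, held no heat shock element of this pattern. Of all 32851 RefSeq windows 0.603% held such an element, and Hspd1 and Hspe1 were the only members with a match. Hspa1a and Hspa1b, copies of the stress-inducible Hsp70 gene on chromosome 17, lie 12918 bases apart on the same strand. Their 250 bases before the start (chr17:34972157-34972406 and chr17:34959239-34959488, both on the minus strand) differ at 3 positions, and the capitals mark the longest run they share.
Hspa1a: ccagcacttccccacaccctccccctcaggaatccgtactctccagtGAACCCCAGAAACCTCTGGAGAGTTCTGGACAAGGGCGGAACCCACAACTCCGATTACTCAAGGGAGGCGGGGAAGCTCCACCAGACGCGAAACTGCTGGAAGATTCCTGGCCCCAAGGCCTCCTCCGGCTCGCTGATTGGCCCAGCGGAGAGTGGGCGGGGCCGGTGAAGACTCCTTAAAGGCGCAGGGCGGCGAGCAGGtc
Hspa1b: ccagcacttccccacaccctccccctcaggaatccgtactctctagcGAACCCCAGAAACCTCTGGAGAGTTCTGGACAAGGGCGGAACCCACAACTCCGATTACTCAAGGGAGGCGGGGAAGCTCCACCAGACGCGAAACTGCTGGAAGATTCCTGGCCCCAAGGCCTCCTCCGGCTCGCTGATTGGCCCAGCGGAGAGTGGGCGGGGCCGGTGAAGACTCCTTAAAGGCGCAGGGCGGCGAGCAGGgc

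A heat shock element of these letters was not found in either window, which says only that this strict pattern is not there. Of all stretches of 50 bases in the longest coding transcript, 58.8% in Hspa1a and 62.3% in Hspa1b also occurred in the other gene. How reads that fit both were counted was not given in the sources used here, so the values of Hspa1a and Hspa1b are uncertain as separate genes.

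Among 16 chaperones, all of them tested, 11 fell, 4 rose and 1 did not pass, with a median log2 change of -0.50. Of 33 tested fast-responding genes 29 were called lower and 4 higher, their median being -0.44, and 1 further gene, Cebpe, was under the minimum value. The median of all 3913 tested genes was -0.28. The 48 of 49 tested members that were called are the same share as the background of 98.0%. By direction, 68.8% of the chaperones and 87.9% of the fast-responding genes were called lower, against 60.1% of all tested genes; the classes were not tested against each other. Against a 1.5-fold change 10 of the 49 members passed, beside 14.5% of all tested genes. Hspa1a, Hspa1b, Hspb1, Hspb6, Hspb7, Fosl2, Klf3 and Klf4 were lower, and Klf1 and Dusp9 higher. Those lower were 31.2% of the chaperones and 9.09% of the fast-responding genes, against 10.3% of all tested genes. After median-of-ratios scaling 9 chaperones (56.2%) and 18 fast-responding genes (54.5%) were called lower, against 32.2% of all tested genes, and the medians were -0.23 and -0.18, beside -0.03 for all genes. Without the length trend 10 chaperones (62.5%) and 20 fast-responding genes (60.6%) were called lower, against 35.6% of all, with medians of -0.46 and -0.21 beside 0.00.

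**Figure D1:**
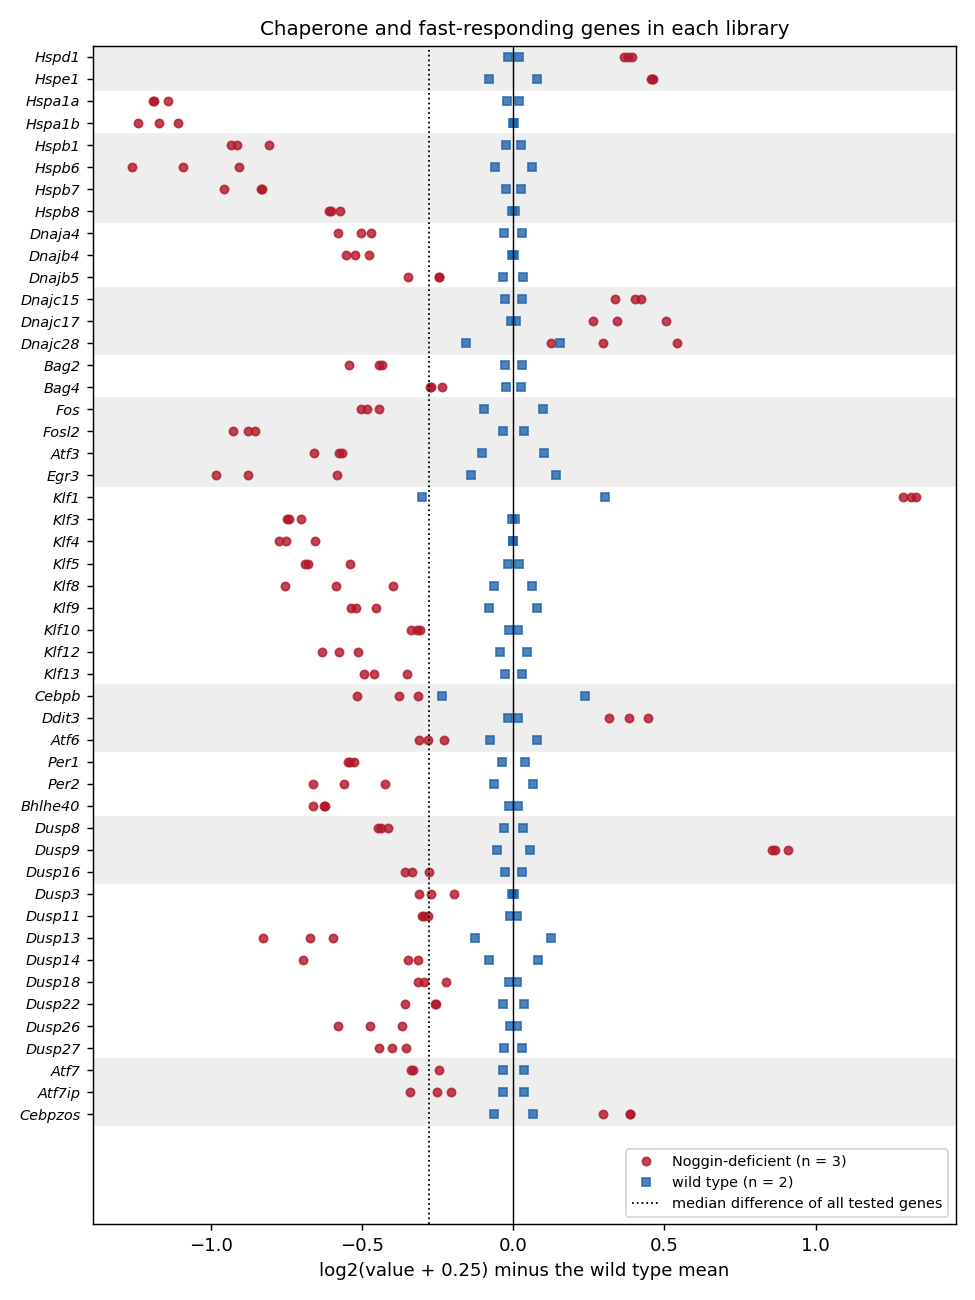
Each row is 1 of the 49 tested members, grouped by role in shaded bands, and the horizontal axis is log2(value + 0.25) minus the wild type mean of that gene, with circles for the 3 Noggin-deficient and squares for the 2 wild type libraries. The dotted line marks the median difference of all tested genes, -0.28, and Dnajc28 is the member whose groups overlap.

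The chaperones split by role. The mitochondrial chaperonin genes rose and the inducible Hsp70 and small heat shock protein genes fell. Hspd1, the chaperonin subunit, stood at 207.4, 203.8 and 205.3 in the Noggin-deficient libraries and at 156.0 and 159.8 in wild type, a log2 change of 0.38 (limma adjusted p = 1e-05, SE 0.027). Its partner Hspe1, the lid of the chamber, had 156.3, 156.0 and 155.6 against 107.4 and 119.9, a log2 change of 0.46 (limma adjusted p = 4.7e-05, SE 0.045). For both genes every Noggin-deficient library lay above both wild type libraries. Counted from the highest of 3913 changes Hspd1 ranked 1186 and Hspe1 751, and neither passed against a 1.5-fold change. The ratio of Hspd1 to Hspe1 within a library, which no scaling between libraries can move, was 1.33, 1.31 and 1.32 in the Noggin-deficient and 1.45 and 1.33 in the wild type libraries. The longest coding transcripts have 2423 bases for Hspd1 and 774 for Hspe1. Most short genes were higher in the Noggin-deficient samples (66.7% of the 935 shortest tested genes had a change above 0, and 8.35% of the 934 longest), and with that trend subtracted the change of Hspd1 was 0.37 while that of Hspe1 was 0.02 (limma adjusted p = 0.75).

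Inducible Hsp70 showed the largest falls among the members. Hspa1a stood at 9.88, 10.2 and 9.89 in the Noggin-deficient libraries and at 22.6 and 23.2 in wild type. Hspa1b had 14.3, 14.9 and 13.6 against 32.4 and 32.5. Both had a log2 change of -1.17 (SE 0.034 and 0.042, limma adjusted p = 1.3e-07 and 4e-07), at 43.7% and 43.9% of the wild type mean, and their groups lay far apart relative to the spread within each. Counted from the lowest of 3913 changes they ranked 194 and 195. The ratio of Hspa1a to Hspa1b was 0.692, 0.686 and 0.729 in the Noggin-deficient and 0.696 and 0.714 in the wild type libraries, so the groups overlapped for that ratio. Scaling and length left these falls in place, at -0.91 and -0.90 after median-of-ratios scaling and -1.07 and -1.10 without the length trend.

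The 4 small heat shock proteins fell together. Hspb1 (Hsp27), which also binds actin filaments, had values of 201.3, 198.6 and 216.6 against 386.5 and 373.0 in wild type, a log2 change of -0.89 (limma adjusted p = 1.6e-06, SE 0.043). Hspb6, a relative found mainly in muscle, had 4.59, 5.93 and 5.18 against 10.9 and 11.9, a change of -1.09 (SE 0.096). Hspb7, of heart and skeletal muscle, had 18.4, 18.4 and 16.9 against 33.6 and 32.4, a change of -0.87. In all of them the lowest wild type library was well above the highest Noggin-deficient library, with Hspb6 the most scattered within its groups. Hspb8, which works with a BAG protein to hand damaged filaments to autophagy, had 20.2, 19.8 and 19.7 against 30.3 and 30.2, a change of -0.60 that did not pass against a 1.5-fold change. Without the length trend the 4 changes were -1.27, -1.33, -0.81 and -0.74 in the order named. The ratio of Hspb7 to Hspb1 was 0.0914, 0.0925 and 0.0778 in the Noggin-deficient and 0.0868 in each wild type library, so the groups overlapped, whereas that of Hspb8 to Hspb1 was higher in every Noggin-deficient library (0.0911 to 0.101) than in wild type (0.0785 and 0.0809).

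The split between chaperones also stood within single libraries. The ratio of Hspd1 to Hspb1 was 1.03, 1.03 and 0.948 in the Noggin-deficient and 0.404 and 0.429 in the wild type libraries. The ratio of Hspd1 to Hspa1b was 14.5, 13.7 and 15.1 against 4.81 and 4.92. These pairs were chosen after the values were seen and are a description.

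**Figure D2:**
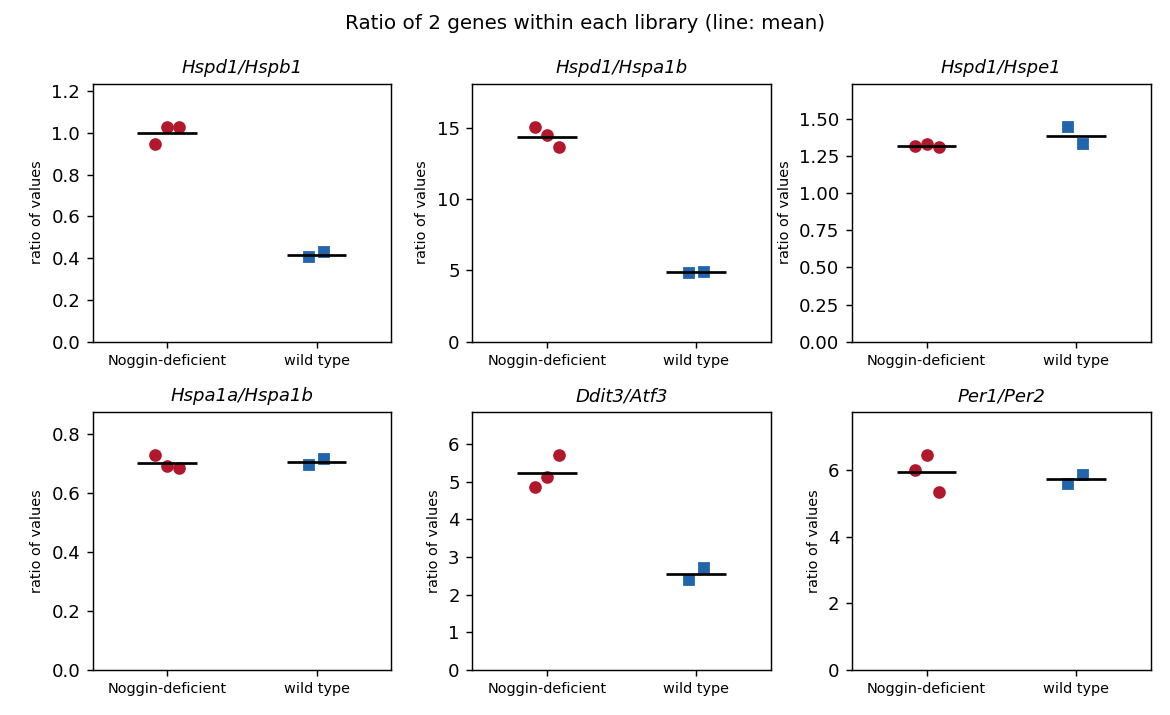
Each panel gives the ratio of the values of the named genes within a library, on a vertical axis from 0, with circles for the Noggin-deficient libraries, squares for wild type and lines for group means. Hspd1 over Hspb1 and over Hspa1b separate the groups (means 1.0 against 0.416 and 14.4 against 4.86), while Hspa1a over Hspa1b (0.702 against 0.705) and Per1 over Per2 overlap.

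J-domain proteins, which deliver clients to Hsp70, parted by type. The type A and B members fell: Dnajb4 had 10.9, 11.5 and 11.2 against 16.1 and 16.2, a log2 change of -0.52 (SE 0.035). Dnaja4 had 6.28, 6.43 and 5.94 against 8.82 and 9.2, also -0.52 (SE 0.048). Both groups were tight and apart. Dnajb5, with 12.4, 12.4 and 11.6 against 14.5 and 15.1, had a smaller change of -0.28, equal to the median of all genes, which was -0.01 (limma adjusted p = 0.83) after median-of-ratios scaling. The type C members, which have varied partners and sites, went the other way or did not pass. Dnajc15, of the mitochondrial inner membrane, had 27.4, 26.1 and 27.7 against 20.2 and 21.0, a change of 0.39 (SE 0.036), and of 0.73 without the length trend, its longest transcript having 6193 bases. Dnajc17 had 10.6, 9.44 and 8.93 against 7.35 and 7.44, a change of 0.37 that was 0.02 (limma adjusted p = 0.82) without the length trend. Dnajc28 overlapped between the groups, with 0.83, 0.71 and 1.03 against 0.73 and 0.54, and its change of 0.32 (limma adjusted p = 0.071, SE 0.15) passed without Noggin-deficient replicate 2 (0.42) or wild type replicate 1 (0.48), and was 0.21 without Noggin-deficient replicate 3 and 0.17 without wild type replicate 2. It also passed after median-of-ratios scaling (0.52, limma adjusted p = 0.016).

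The BAG co-chaperones fell. Bag2, which restrains the ubiquitin ligase that works with Hsp70, had 19.6, 18.2 and 19.5 against 27.1 and 26.1, a log2 change of -0.47 (SE 0.042). Bag4, which also binds death receptors, had 2.6, 2.67 and 2.59 against 3.25 and 3.13, a change of -0.26 (SE 0.057), about the median of all genes, and by -0.01 (limma adjusted p = 0.90) after median-of-ratios scaling and 0.04 without the length trend. Genes with Cct symbols, Hsp90 genes, Hspa5, Hspa8 and Hsph1 were not analysed here.

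Beyond the chaperone symbols, few genes of the same machinery could be followed. Of 25 heat shock regulators and co-chaperones of Hsp70 and Hsp90, 3 had values: Sugt1, which binds Hsp90, and Aarsd1 rose by 0.36 and 0.41, and Fkbp5, a glucocorticoid-induced Hsp90 partner, had a change of -0.46. Of 19 other cytosolic chaperones Pfdn5, a prefoldin subunit, rose by 0.37 (0.03, limma adjusted p = 0.28, without the length trend). Of 11 muscle genes, listed for chaperones and myosin assembly, 4 had values and all 4 fell. Murc and Bves, neither of them a chaperone or a myosin assembly factor, were at -0.67 and -0.61. They kept their calls after median-of-ratios scaling (-0.40 and -0.35) and without the length trend (-0.76 and -0.35). Unc45b, the myosin chaperone, was at -0.32 and Trim55 at -0.29, and after median-of-ratios scaling they were at -0.05 (limma adjusted p = 0.19) and -0.02 (limma adjusted p = 0.54). Of 25 genes of folding in the endoplasmic reticulum only Ern1, a stress sensor, had values, with a change of -0.40 that was -0.15 (limma adjusted p = 0.12) after that scaling. None of 13 mitochondrial chaperones and proteases outside the chaperonin was analysed here.

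Immediate early transcription factors fell. Fos, the partner of Jun in AP-1, stood at 7.93, 7.71 and 7.6 in the Noggin-deficient libraries and at 11.7 and 10.2 in wild type, a log2 change of -0.48 (limma adjusted p = 0.00015, SE 0.059). Fosl2, a slower relative of Fos, had 7.32, 7.44 and 7.05 against 14.0 and 13.3, a change of -0.89 (limma adjusted p = 1.4e-06, SE 0.041), at 53.2% of the wild type mean. The groups were apart for both genes, and the ratio of Fos to Fosl2 was 1.08, 1.04 and 1.08 against 0.834 and 0.762, higher in every Noggin-deficient library. Atf3, a stress-induced factor of the same superfamily, had 2.45, 2.3 and 2.47 against 4.07 and 3.5, a change of -0.60 (SE 0.077). Egr3, a zinc finger factor needed for muscle spindles, had 0.9, 0.82 and 1.16 against 1.67 and 2.08, a change of -0.82 (SE 0.14), with wide scatter at low values. Jun, Junb, Jund, Egr1, Ier2, Nr4a1, Btg2, Dusp1, Gadd45g and Myc were not analysed here.

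Of 9 Kruppel-like factors, zinc finger proteins of GC-rich promoters, 8 fell and Klf1 rose. Klf4, a regulator of epithelial barrier and stem cells that serum and stress also induce, had 30.0, 32.6 and 30.4 against 51.5 in each wild type library, a log2 change of -0.73 (limma adjusted p = 2.5e-06, SE 0.039). Klf3, a repressor, had 5.1, 5.08 and 5.26 against 8.68 and 8.74, also -0.73 (SE 0.041). Klf5, of proliferating epithelia and smooth muscle, had 8.47, 9.36 and 8.4 against 13.5 and 13.9, a change of -0.64. In these the groups were far apart and both median-of-ratios scaling (-0.46, -0.47 and -0.37 for Klf4, Klf3 and Klf5) and subtraction of the length trend (-0.61, -0.42 and -0.47) kept the direction. Klf13 had 10.9, 10.7 and 11.8 against 15.46 and 14.86, a change of -0.44 that was -0.09 (limma adjusted p = 0.13) without the length trend. Klf8, Klf12, Klf9 and Klf10 had changes from -0.58 to -0.32, of which Klf8 was at -0.29 (limma adjusted p = 0.056) without the length trend and Klf10, which TGF-beta induces early, at -0.06 (limma adjusted p = 0.21) after median-of-ratios scaling. Klf1, the erythroid factor, had 2.01, 2.05 and 2.08 against 0.89 and 0.5, a change of 1.31 (limma adjusted p = 0.00015, SE 0.16), with the wild type libraries uneven but both below the others.

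Markers of skeletal muscle and of other cell types also differed between the groups, in both directions. The 5 of 9 erythroid markers with values rose (summed level 218.0 to 224.5 in Noggin-deficient and 93.7 to 98.5 in wild type libraries), and none was at 0 in any library. The 8 of 9 epidermal markers with values fell (959.3 to 996.7 against 2489 to 2527), also with none at 0, and of 12 of 16 skeletal muscle markers with values 11 fell and Actn3 rose (4642 to 4875 against 6636 to 6763). All 9 liver markers rose (117.2 to 117.8 against 8.83 to 9.02), with Fgb, Serpina1a and Ahsg at 0 in some or all wild type libraries. Of 11 macrophage and neutrophil markers 5 had values and the 4 tested rose (29.1 to 31.1 against 18.3 to 18.6), Elane being at 0 in a wild type library. Both endothelial markers with values, of 8, rose (91.3 to 93.7 against 62.6 to 64.1). Of 9 neuron and Schwann cell markers 8 had values, 5 of the 7 tested rising and 2 falling (36.15 to 36.79 against 21.55 to 22.33). The part of these cells in the changes of Klf1, Klf4, Klf5, Hspb1, Hspb6, Hspb7 or any other member was not tested, and in bulk tissue fewer cells of a type and less RNA per cell cannot be told apart. Muscle markers were detected in every library, Acta1 with values from 1580 and Myh3 from 588.5 upward, both lower with Noggin deficiency.

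Factors of the C/EBP family and of the unfolded protein response went both ways. Cebpb, an inflammation and differentiation factor, had 4.55, 4.11 and 4.77 against 7.11 and 5.05, a log2 change of -0.40 (limma adjusted p = 0.017, SE 0.13). Its wild type libraries differed from each other by more than the lower of them did from the Noggin-deficient libraries, and the change was -0.17 (limma adjusted p = 0.11) without wild type replicate 1, -0.35 (limma adjusted p = 0.057) without Noggin-deficient replicate 2 and -0.64 without wild type replicate 2. After median-of-ratios scaling it was -0.14 (limma adjusted p = 0.37). Ddit3 (CHOP), a stress-induced factor that binds C/EBP proteins, had 12.6, 13.1 and 12.0 against 9.7 and 9.47, a change of 0.38 (limma adjusted p = 0.00012, SE 0.045). With a longest transcript of 890 bases, its change was -0.01 (limma adjusted p = 0.79) without the length trend. Atf6, a membrane-bound sensor of the endoplasmic reticulum, changed by -0.27, and by -0.01 and 0.09 under median-of-ratios scaling and without the length trend. Cebpe, a factor of granulocytes, had 0.19, 0.25 and 0.35 against 0.04 and 0.14 and was under the minimum for testing. The ratio of Ddit3 to Atf3 within a library was 5.13, 5.71 and 4.85 in the Noggin-deficient and 2.38 and 2.71 in the wild type libraries.

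The clock genes among the members fell. Per1, a repressor of the clock that hormones and light induce within an hour or so, had 14.1, 14.0 and 14.2 against 21.1 and 20.1, a log2 change of -0.54 (limma adjusted p = 5.5e-06, SE 0.034). Per2, its relative, had 2.18, 2.62 and 2.36 against 3.78 and 3.43, a change of -0.55 (SE 0.085). Bhlhe40, which binds the same E-boxes as the clock activators and is also induced by TGF-beta and low oxygen, had 8.74, 8.97 and 9 against 14.1 and 13.8, a change of -0.64 (SE 0.034). The groups were apart for all of them, and within a library the ratio of Per1 to Per2 overlapped between the groups (5.35 to 6.45 against 5.59 to 5.85). Subtracting the length trend left changes of -0.25 for Per1, -0.21 for Per2 and -0.50 for Bhlhe40. Of 19 further clock genes 5 were tested. Rora (-0.99), Clock (-0.34) and Cry1 (-0.31) fell, Bhlhe41 rose by 0.28 and Npas2 had a change of -0.23 (limma adjusted p = 0.066). Under median-of-ratios scaling Clock and Cry1 no longer passed (-0.09 and -0.04). The time of day of collection was not given in the sources used here.

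Dual-specificity phosphatases mostly fell by small amounts. Dusp9, which removes phosphate from ERK in the cytoplasm, was the exception, with 3.2, 3.08 and 3.1 against 1.66 and 1.52, a log2 change of 0.88 (limma adjusted p = 1.2e-05, SE 0.065), and of 1.12 and 0.94 under median-of-ratios scaling and without the length trend. Dusp8 and Dusp16, which act mainly on JNK and p38, had changes of -0.43 and -0.32. Dusp16 did not pass after median-of-ratios scaling (-0.10, limma adjusted p = 0.32). The other 8 phosphatases fell, from -0.70 to -0.26. Dusp13, of muscle and testis, had 0.89, 0.72 and 0.83 against 1.63 and 1.33, a change of -0.70 (SE 0.11). Dusp27, an inactive relative found in muscle, had 11.4, 12.2 and 11.8 against 16.0 and 15.3, a change of -0.40 that was -0.16 without the length trend. Dusp26 changed by -0.47 and Dusp14 by -0.45, the latter -0.37 (limma adjusted p = 0.056) without wild type replicate 2 and -0.20 (limma adjusted p = 0.18) after median-of-ratios scaling. Dusp3, which acts on ERK and JNK, had 18.4, 17.0 and 17.4 against 21.2 and 21.0, and Dusp11 15.32, 15.46 and 15.27 against 19.0 and 18.7. Dusp3, Dusp18, Dusp22 and Dusp11, the last an RNA phosphatase, were between -0.29 and -0.26, at the median of all genes, and between -0.03 and 0.01 after median-of-ratios scaling.

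The remaining members fall in none of these groups. Atf7, an AP-1 relative, had 7.32, 7.82 and 7.35 against 9.55 and 9.1, a change of -0.31. Atf7ip, a cofactor of a histone methyltransferase and no ATF factor itself, had 12.5, 12.1 and 11.3 against 14.8 and 14.1, a change of -0.27, while median-of-ratios scaling brought them to -0.04 and 0.00. Cebpzos, transcribed opposite Cebpz, had 2.39, 2.39 and 2.23 against 1.68 and 1.86, a change of 0.36 that was -0.09 (limma adjusted p = 0.34) without the length trend. Whether reads were counted by strand was not given in the sources used here, so reads of Cebpzos and its neighbour may not be separated.

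**Figure D3:**
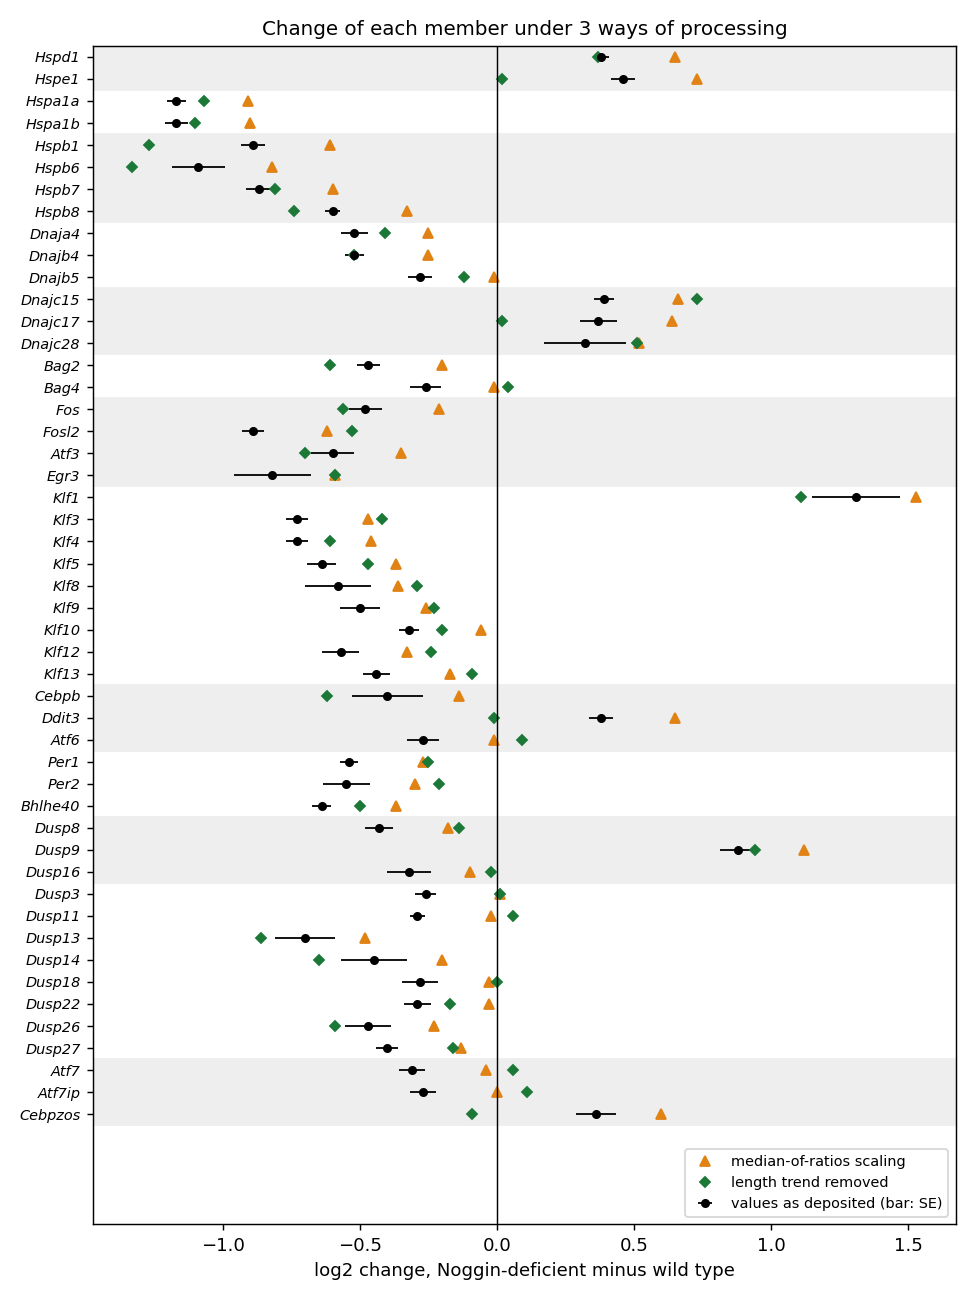
Rows are the 49 tested members and the horizontal axis is the log2 change, Noggin-deficient minus wild type, with circles and SE bars for values as deposited, triangles after median-of-ratios scaling and diamonds without the length trend. Hspa1a, Hspa1b, the Hspb genes, Fosl2 and Klf4 stay below 0 and Hspd1, Dnajc15, Klf1 and Dusp9 above 0 in all of them, whereas Hspe1, Dnajc17, Ddit3 and Cebpzos lie near 0 without the length trend.

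The tested immediate early genes outside the symbol pattern mostly fell, as did most fast-responding members and 60.1% of all tested genes. Of 41 such genes 10 had values and 9 were tested, 8 lower and 1 higher. Their median was -0.37 on the log2 scale, beside -0.28 for all tested genes. Srf, the factor that drives many of them, had 23.1, 23.4 and 24.4 against 31.6 and 29.5, a change of -0.37. Zfp36, which destabilises short-lived messages, changed by -0.41 and Sik1, a kinase induced by cAMP, by -0.38. Ccl2, a chemokine, rose by 0.58. Under median-of-ratios scaling Zfp36, Sik1 and Tob1 still passed (-0.14, -0.11 and -0.13), while Srf (-0.09, limma adjusted p = 0.071), Csrnp1, Homer1 and Tob2 did not. Ccl2 was at 0.15 (limma adjusted p = 0.19) without the length trend. Of 22 genes of the integrated stress response 4 were tested: Trib3, a target of Ddit3, rose by 0.42, and Slc7a11, the cystine transporter, Slc7a5 and Sesn2 changed by -0.82, -0.38 and -0.28. Median-of-ratios scaling left Sesn2 at -0.02 (limma adjusted p = 0.83). Of 28 genes of the MAP kinase cascade and its feedback 6 were tested, Mapk11 rising by 0.46 and 5 falling. Mapk13 fell most, at -0.58, followed by the inhibitor Spred2 at -0.46 and Etv5 at -0.33. The SRF cofactors Mkl1 and Mkl2 were at -0.24 and -0.29. Under median-of-ratios scaling Mapk13 and Spred2 still passed (-0.31 and -0.20), while Etv5 (-0.06), Mkl1 (0.03) and Mkl2 (-0.03) did not.

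Transcript length was set against the change for the members and for all tested genes; the difference between them was not tested. Across 3737 tested genes with a length, the log2 change and the length of the longest coding transcript had a Spearman correlation of -0.29, and across the 49 tested members -0.02. These are correlations across genes, which share the same 5 libraries and are not replicates. Among the 935 shortest, up to 1909 bases, 66.7% of all genes had a change above 0 (median 0.39), whereas 5 of 12 members did (median -0.43). Among the 934 longest 8.35% of all genes (median -0.36) and 1 of 9 members (median -0.31) were above 0. Short members that fell included Hspb1 with 930 bases, Hspb6 with 1363, Cebpb with 1504 and Dusp14 with 1571.

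**Figure D4:**
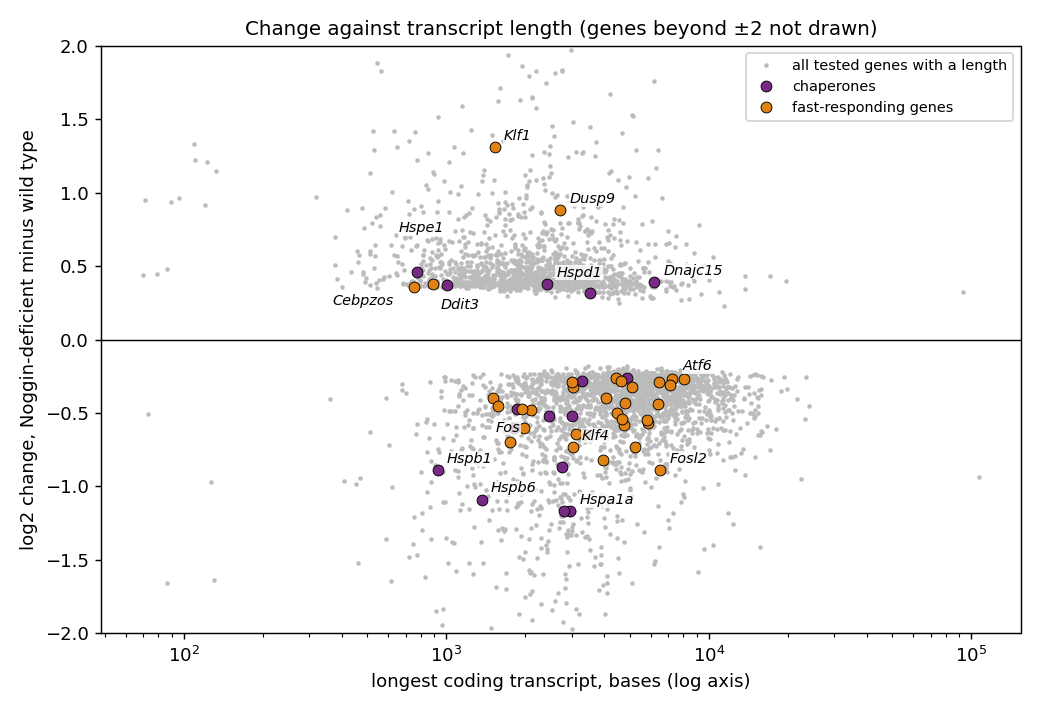
The horizontal axis is the length of the longest coding transcript in bases on a log axis and the vertical axis the log2 change, Noggin-deficient minus wild type, with grey points for all tested genes and larger points for chaperones and fast-responding genes. Few genes lie near 0, and Hspb1 and Hspb6 lie low among short genes, where Hspe1, Ddit3 and Cebpzos lie with most others.

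Other promoter motifs were counted in the same windows, on both strands. The cAMP response element TGACGTCA was in 1.96% of the 51 member windows and 1.79% of all windows, with 2 copies in the window of Dusp8. The AP-1 site TGACTCA was in 3.92% against 5.2%, in Ddit3 and Dusp13. The E-box CACGTG was in 7.84% against 7.15%, in Per1, Klf4, Atf7 and a window of Hspd1. The site TGATGNAA bound by C/EBP and ATF pairs was in 3.92% against 3.97%, in Atf3 and Dusp11, the CArG box of SRF in 1.96% against 1.63%, in Klf8, and the endoplasmic reticulum stress element in none of the member windows and 0.119% of all. No match among the members overlapped one of another motif. These windows are short and a match of letters is a description of the sequence only.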

How the data were processed

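Total RNA of forelimb muscle was isolated with a column kit, made into stranded mRNA libraries and sequenced on an Illumina instrument, per the labels' protocols. The authors deposited 1 table per sample, an expression signal per gene that they had normalized by a method not given in the sources used here. STAR 2.4.2a, DESeq2 and mm9 appear in the submitters' processing notes with no role. Promoter sequences come from GRCm38.p6, so no coordinate was carried between builds.

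The tables were joined by symbol and tested with limma 3.58.1 in R 4.3.3 (limma-trend on log2(value + 0.25), without covariates, for genes that reached 0.5 in 2 or more libraries). The pseudocount understates changes of low genes. The test was tried on simulated data first. The length trend was a loess fit (span 0.5) of log2 change on log2 length of the longest coding GENCODE M21 transcript, known for 4462 of 4743 genes and all 50 members, subtracted before refitting. Alternatives were pseudocounts of 1 and 0.05, no filter and a minimum of 2, median-of-ratios and upper-quartile scaling, a test against a 1.5-fold change, leaving out each sample, and the replicate number as a block.

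The members and lists were chosen with earlier results of these data known. Values in every library are given for 33 well-known names (12 had values), for the 6 largest called rises and falls per class with a mean of at least 1, and for the 2 highest-valued members of each subfamily; other members are summarised. Role groups and gene ratios were set after values were seen and carry no test. Some genes of the lists are not reported here.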

Additional observations from a re-analysis of the deposited data

How the results depend on the processing

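Pseudocounts of 1 and 0.05, no filter, a minimum of 2 (44 members tested) and the replicate block changed no direction or call of the members they tested; without a filter Cebpe was also called higher. Leaving out each sample in turn changed calls of Dnajc28, Cebpb and Dusp14 only. The replicate block, with 3772 genes called against 3836, kept 48 of 48 member calls. Replicate numbers do not pair the samples: deviations of same-numbered samples correlated at -0.126 and -0.0617, and Noggin-deficient replicate 3 has no partner.

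Against a 1.5-fold change 569 genes passed, with 5 chaperones lower and 0 higher (limma's treat, and 0 at an unadjusted p under 0.05). Among fast-responding genes 3 were lower and 2 higher. The shares lower were 31.2% of chaperones and 9.09% of fast-responding genes, against 10.3% of all tested genes. Median-of-ratios scaling left 18 fast-responding genes called lower and medians of -0.23 for chaperones and -0.18 for fast-responding genes, and turned Dusp3 to 0.01 and Atf7ip to 0.00. Upper-quartile scaling gave medians of -0.30 and -0.24. Subtracting the length trend gave a fast-responding median of -0.21 and turned Bag4 (0.04), Atf6 (0.09), Dusp3 (0.01), Dusp11 (0.06), Dusp18 (0.00), Atf7 (0.06), Atf7ip (0.11), Ddit3 (-0.01) and Cebpzos (-0.09). The cause was not tested. With the depth unknown and the tables holding mostly genes that differ, neither small changes nor unlisted members can be judged.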
